A study of Mus musculus with 2 samples.

Results

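Bidirectional promoters are stretches of DNA between the start sites of 2 protein-coding genes that lie head to head on opposite strands. They were examined here in single-cell ATAC-seq data from mouse embryonic back skin, in which accessible chromatin is read out as transposition cut sites. Of 214119 regions with a peak in both libraries, 712 lay within 500 bp of the transcription start sites (TSSs) of such a gene pair, with the TSSs at most 1000 bp apart (GENCODE annotation, mm10/GRCm38). They are set against 13186 promoter regions of single genes, weighted to the same GC content, and against all 14516 promoter regions. The study compared 1 Control library with 1 library of genotype MOFfl/fl/K14Cre (MOF cKO), both from embryos at E16.5. In MOF cKO skin, Cre driven by the Krt14 promoter removes the floxed gene of MOF (Kat8), a histone acetyltransferase that acetylates lysine 16 of histone H4, in cells of the epithelial lineage. Both libraries came from mice of mixed C57Bl/6J and CD-1 background that carried a K14-H2BGFP reporter, and GFP-positive epithelial cells and GFP-negative cells were sorted and put back together at 5 to 1 by the labels. The study's text gives lower ratios for this mix. Control embryos were littermates, wildtype or heterozygous in the study's general description, and the number of embryos in each library was not given in the sources used here. Fibroblasts, in which this Cre is not active, were present in both libraries. With 1 library per genotype, no difference between genotypes could be tested, and all intervals are 95% intervals. Those of single regions and of shares of sites cover counting error only, and those of medians, motif shares and list shares cover the number of regions or genes. None covers differences between embryos.

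In a divergent arrangement, the upstream region of one gene is also the upstream region of the other, so that a single nucleosome-depleted stretch serves both transcription start sites. Such promoters are usually rich in CpG dinucleotides, lack TATA boxes and carry sites for widely expressed factors such as the ETS family, NRF1, NFY and YY1. They are known for housekeeping genes, above all those of DNA repair, mitochondria and the replication-dependent histones.

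The DNA between the 2 start sites is shown for 7 pairs that recur in the results. Each run is the plus strand of GRCm38, read from the base after the TSS of the minus-strand gene to the base before the TSS of the plus-strand gene, so it holds no transcribed base of either gene record. Capitals mark matches on either strand to the motifs described further on, among them GGGCGG (SP/KLF), CCAAT (NFY), CCGGAAG (ETS), GCATGCGC (NRF1 core), GTTGCCA (RFX) and CACGTG (E-box). Pairs of mitochondrial and ciliary genes come first, at chr6:115853372-115853469, chr11:53430832-53431022, chr7:28741821-28741991 and chr5:30155163-30155247. The last 3 are at chr19:45560532-45560614 and chr4:116123691-116123839, which were among the regions furthest below Control in MOF cKO epithelial-like cells, and at chr5:138187452-138187484, which was higher in MOF cKO.
Mbd4/Ift122: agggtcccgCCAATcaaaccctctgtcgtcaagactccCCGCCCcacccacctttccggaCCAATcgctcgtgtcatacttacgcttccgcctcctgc
Uqcrq/Gdf9: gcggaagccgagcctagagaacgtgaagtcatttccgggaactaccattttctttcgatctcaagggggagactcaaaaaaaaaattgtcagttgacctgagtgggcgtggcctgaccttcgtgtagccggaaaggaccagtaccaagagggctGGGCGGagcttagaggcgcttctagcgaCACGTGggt
Mrps12/Sars2: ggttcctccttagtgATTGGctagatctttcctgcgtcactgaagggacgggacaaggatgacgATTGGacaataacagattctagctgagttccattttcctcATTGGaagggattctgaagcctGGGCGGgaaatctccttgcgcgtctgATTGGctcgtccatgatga
Hadha/Hadhb: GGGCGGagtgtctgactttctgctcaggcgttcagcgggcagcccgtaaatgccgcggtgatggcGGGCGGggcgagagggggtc
Poll/Gm17018: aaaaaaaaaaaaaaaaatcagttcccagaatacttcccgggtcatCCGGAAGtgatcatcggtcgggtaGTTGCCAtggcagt
Rad54l/Pomgnt1: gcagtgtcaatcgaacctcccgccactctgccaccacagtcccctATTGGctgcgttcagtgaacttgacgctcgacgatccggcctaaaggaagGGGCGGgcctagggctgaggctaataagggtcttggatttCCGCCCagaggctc
Taf6/Cnpy4: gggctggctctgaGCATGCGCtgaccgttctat
These stretches differed in composition. The spacer of Mrps12/Sars2 carried 4 CCAAT boxes in either orientation and had a GC content of 49.7%. The spacer of Hadha/Hadhb had a GC content of 69.4% and GC boxes of the SP/KLF type as its marked matches. In Taf6/Cnpy4 the start sites were 34 bp apart, and the marked match is a single NRF1 core.

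The annotation held 755 divergent pairs with TSSs at most 1000 bp apart, and accessible chromatin was called at nearly all of them. Counted by gene and not by pair, 15134 of all 21938 protein-coding genes had a shared promoter region. A region shared by both libraries lay near 720 pairs, 30 pairs had no peak in either library, 4 had a peak in MOF cKO alone and 1 in Control alone. Where a region was near several pairs it was assigned to the closest pair, which left 700 pairs and 1400 genes at the 712 regions, with 12 pairs at 2 regions each. The median distance between TSSs was 127 bp (quartiles 65.8 and 232 bp, up to 981 bp), and 649 of the regions (91.2%) spanned both start sites. At 29 regions more than 2 protein-coding genes had a start site within reach. Of the 712 regions 698 were autosomal and 14 were on X. Their share of promoter regions ran from 2.55% on chromosome 18 and 2.99% on X to 6.85% on chromosome 17.

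The Control library held 2541 barcodes with 169641002 cut sites and the MOF cKO library 4348 barcodes with 324310197 cut sites, and 21 barcode sequences occurred in both. Clusters named from marker genes gave 1751 epithelial-like and 606 fibroblast-like cells in Control, and 2727 and 1189 in MOF cKO. The libraries formed different epithelial clusters: the only epithelial cluster well filled by both was a shallow one, with 428 Control and 180 MOF cKO cells and 3696.5 sites in the median cell. The fibroblast clusters were also unevenly filled, with 62 Control and 656 MOF cKO cells in one, 528 and 79 in another, 0 and 437 in the next, and 16 and 17 in the smallest. Genotype, library and cluster therefore cannot be told apart in either class. The Kat8 promoter region itself, which is outside this set and says nothing of the deleted part of the gene, had 48.7 CPM in Control and 36.8 CPM in MOF cKO epithelial-like cells. CPM here are cut sites per 1000000 sites in shared regions, for each cell class and library. Every one of the 712 regions had at least 20 sites over both libraries among epithelial-like (320 to 50565, median 9708) as among fibroblast-like cells (20 to 24389, median 3995.5), so none was lost to that minimum.

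In Control skin, bidirectional promoters were among the most accessible promoters. The median level in epithelial-like cells was 35.9 CPM per region (quartiles 24.7 and 50.6), against 17.0 CPM at single-gene promoters and 19.96 CPM at single-gene promoters of matched GC. All promoter regions had a median of 18.4 CPM and distal regions 1.38 CPM. On the log2 scale, bidirectional promoters were 0.85 above single-gene promoters of matched GC. They were not wider (median 909 bp against 906 bp), and the difference was 0.86 on CPM per kb. Fibroblast-like cells gave the same order, with 40.3 CPM at bidirectional and 23.2 CPM at GC-matched single-gene promoters. A group of 615 single-gene promoters had a long noncoding RNA in place of the second coding gene. These lay between the other groups, with 28.6 CPM in Control epithelial-like cells at matched GC, while single-gene promoters with no other annotated TSS within 1000 bp had 19.2 CPM. Counts of cells gave the same picture. With every cell thinned to 5000 sites, which left out 303 shallower Control cells, the median bidirectional promoter had a site in 15.3% of Control epithelial-like cells, against 8.77% for single-gene promoters of matched GC and 0.622% for distal regions.

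Bidirectional promoters were also even between cell types. The clusters were built from accessibility, so the epithelial and fibroblast values are a description. The epithelial to fibroblast ratio in Control had a median of -0.17 on the log2 scale, with quartiles of -0.30 and -0.03. For single-gene promoters of matched GC the median was -0.19 and the quartiles -0.47 and 0.08. Only 21 of 712 bidirectional promoters (2.95%) differed 2-fold or more between the classes in either direction, against 16.6% of single-gene promoters at matched GC and 7.47% at matched GC and level. The share was 9.90% of single-gene promoters with a divergent long noncoding RNA at matched GC, and the background over all promoter regions was 19.8%. The match on level was coarse at the low end, as its lowest bin had no lower limit. In the MOF cKO library 8.15% of bidirectional, 23.3% of GC-matched single-gene and 26.1% of all promoter regions were past 2-fold. For single-gene promoters in that library it was 12.4% at matched GC and level, and 15.1% with a divergent long noncoding RNA at matched GC. The median ratio there was -0.58 for bidirectional promoters, -0.58 for GC-matched single-gene promoters and -0.55 for all promoter regions.

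**Figure D1:**
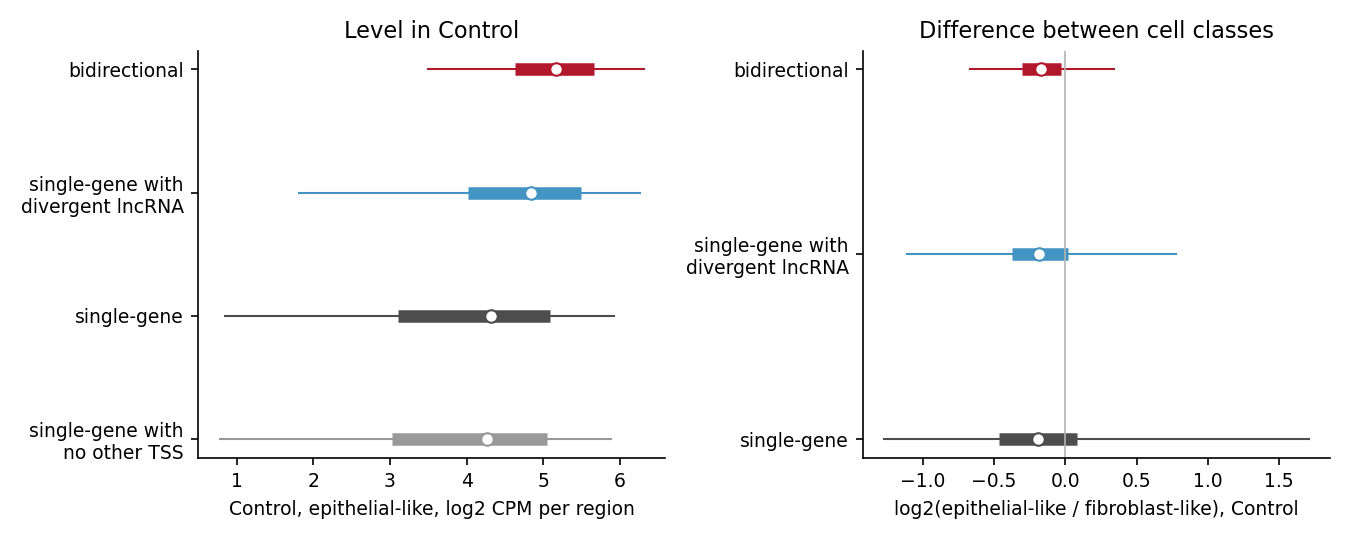
Level and cell class balance of promoter regions in Control. The left panel shows log2 CPM per region in epithelial-like cells and the right panel the log2 ratio of epithelial-like to fibroblast-like cells; circles are medians, thick bars quartiles and thin bars the 5th to 95th percentile, with all single-gene groups weighted to the GC of the bidirectional regions. The bidirectional promoters have the highest median level, 5.17 against 4.32 for single-gene promoters, and the narrowest quartiles in both panels.

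The regions far from this balance were few, and the 3 at each end were named by rule. Among regions with at least 500 sites over both classes in Control, P3h4/Fkbp10 was the most fibroblast, with 2.69 CPM in epithelial-like and 15.5 CPM in fibroblast-like Control cells. Both genes encode proteins of the endoplasmic reticulum that act on collagen. Next came Sobp/9030612E09Rik, with 6.402 and 23.8 CPM, and Dok1/Loxl3, with 7.88 and 22.95 CPM. Loxl3 encodes a lysyl oxidase, an enzyme family that crosslinks collagen and elastin. At the epithelial end, Cfap52/Stx8 had 10.5 CPM in epithelial-like and 1.94 CPM in fibroblast-like cells. Klc3/Ckm had 33.4 and 6.30 CPM, and Il17rb/Chdh, which includes a receptor chain for interleukin 17 family cytokines, had 34.3 and 7.22 CPM. Several of these regions did not span both start sites, as 91.2% of all members did. Those of P3h4/Fkbp10, Dok1/Loxl3, Cfap52/Stx8 and Klc3/Ckm did not reach the TSSs of P3h4, Loxl3, Stx8 and Ckm. The highest levels of all were at Hjurp/Trpm8, with 194 and 241 CPM in the 2 classes of Control cells. Hjurp encodes the chaperone of the centromeric histone CENP-A, and Trpm8 a cold-sensing channel. Cep57/Fam76b (119 and 121 CPM) and Mob3a/Izumo4 (118 and 126 CPM) followed.

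The base composition of the regions set them apart as well. Their median GC content was 61.2%, against 59.2% for single-gene promoters, and their median observed to expected CpG ratio was 0.79. Single-gene promoters had a ratio of 0.69, and 0.73 once weighted to the same GC content, so CpG dinucleotides were more frequent at bidirectional promoters than GC alone gave. A ratio of at least 0.6 was found at 89.5% of bidirectional and 73.6% of GC-matched single-gene promoters.

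Of 10 short motifs searched on both strands of each region, 8 were more frequent at bidirectional than at GC-matched single-gene promoters. The largest contrast in percentage points was the ETS core CCGGAAG, present in 303 of 712 regions (42.6%, interval 38.9 to 46.3), in 23.6% of GC-matched single-gene promoters and in 23.6% of all promoter regions. The YY1 motif AAGATGGC was in 15.2% of bidirectional regions (12.6 to 18.02), 7.42% of matched single-gene regions and 7.78% of all, which as a ratio is a wider contrast than that of ETS. GCATGCGC, the core of the NRF1 site, was in 10.1% (7.997 to 12.6), 6.92% and 6.62%. NRF1 is an activator of nuclear genes for mitochondrial proteins. The cyclic AMP response element TGACGTCA was in 6.46%, 4.35% and 4.19%, the SP/KLF box GGGCGG in 91.4%, 86.6% and 79.2%, and the NFY box CCAAT in 66.9%, 61.2% and 63.1%. The interval held the value of the matched promoters for the RFX motif GTTGCCA, in 11.2% (9.01 to 13.8), 9.07% and 9.54%, whose last letters can overlap a CCAAT box, and for the E-box CACGTG, in 21.6% (18.7 to 24.8), 20.1% and 19.4%. RFX factors act on ciliary genes. The TATA box TATAAA was less frequent, in 11.9% (9.65 to 14.5) against 15.6% and 19.1%. The AP-1 site, searched as TGACTCA and TGAGTCA, was in 8.01% against 10.2% and 11.5%, with an interval of 6.12 to 10.25 that just held the matched value. In a 300 bp window the same count of 8 motifs was more frequent, and ETS stood at 28.4% against 13.96%. A match is a string in the sequence and does not show that a factor binds there.

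**Figure D2:**
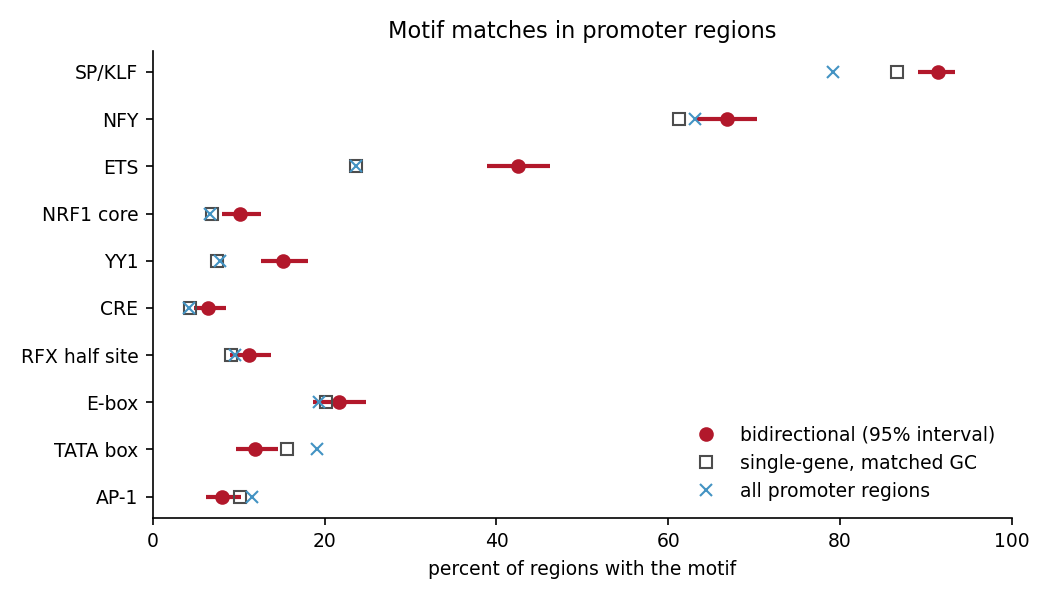
Motif matches in promoter regions. The horizontal axis is the percent of regions with at least 1 match on either strand; red circles are the 712 bidirectional promoters with exact 95% intervals, squares single-gene promoters weighted to the same GC and crosses all promoter regions. ETS, at 42.6% against 23.6%, lies farthest from the comparison groups, and the TATA box and AP-1 lie below them.

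Genes at bidirectional promoters were counted within lists chosen with earlier results of these data known. Of 15134 protein-coding genes with a promoter region, 1400 (9.25%) were at a bidirectional promoter. The share was 33.0% for DNA repair genes (38 of 115, interval 24.6 to 42.4) and 35.6% for histone genes (21 of 59, 23.6 to 49.1). It was 24.0% for subunits of ATP synthase and of the electron transport chain, ETC (18 of 75, 14.9 to 35.3) and 23.4% for mitochondrial ribosomal proteins (18 of 77, 14.5 to 34.4). Cilium genes had 15.9% (17 of 107, 9.54 to 24.2). The intervals for aminoacyl-tRNA synthetases, at 13.5% (5 of 37, 4.54 to 28.8), and cytosolic ribosomal proteins, at 10.1% (8 of 79, 4.47 to 19.0), held the value for all genes. None of 57 epidermal lineage and adhesion genes was at a bidirectional promoter, which allows a share of up to 6.27% by the exact interval. The list covers keratins, desmosome genes and epidermal transcription factors. In 10 of 11 histone regions both genes were on the list, in 9 of them an H2A and an H2B gene head to head. No region of any other list had both of its genes on that list.

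In MOF cKO epithelial-like cells, bidirectional promoters took a smaller part of the accessible sites. They held 2.81% of sites in shared regions in Control (2.81 to 2.82) and 2.06% in MOF cKO (2.06 to 2.07). The share of single-gene promoters went from 28.1% to 21.3%. The relative decrease was 26.7% for bidirectional and 24.4% for single-gene promoters, and bidirectional promoters accounted for 8.58% of promoter sites in Control and 8.34% in MOF cKO. Counted cell by cell, the same sites gave the same shift, and the cells of a library are not replicates of its genotype. The share per cell had a median of 2.83% in Control epithelial-like cells (quartiles 2.56 and 3.11) and of 2.02% in MOF cKO (1.81 and 2.26), so the quartile ranges did not overlap. In fibroblast-like cells the share was 3.12% in Control and 3.04% in MOF cKO, and the medians per cell were 3.08% and 3.03%. Immune-like cells had 4.02% and 4.01%, in 45 and 263 cells. Mural-like cells had 3.49% and 3.43%, in 15 and 67 cells. In the remaining named classes, with 24 or fewer cells in each library, the share was 3.85% and 3.42% for endothelial-like cells and 3.97% and 3.71% for muscle-like cells.

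Region by region, the change in epithelial-like cells was a near-uniform decrease relative to the sites in shared regions. The median log2(MOF cKO / Control) was -0.44 (interval -0.45 to -0.43, n = 712 regions), with quartiles of -0.51 and -0.37, and 697 of 712 regions (97.9%) were lower in MOF cKO. The counting interval of a region lay below 0 at 684 regions (96.1%), against 76.3% of all promoter regions and 91.0% of single-gene promoters matched on GC and level. It lay above 0 at 11 regions, against 9.52% of all promoter regions. The median of sites per region, which sets the width of these intervals, was 9708 over the members and 5106.5 over all promoter regions. All promoter regions had a median of -0.41, with quartiles of -0.54 and -0.20, and 84.7% were lower. Distal regions had a median of -0.09. The position of 0 depended on the scaling: the median of bidirectional promoters was -0.59 scaled to all peaks of each library, -0.29 with median-of-ratios factors and -0.24 as sites per cell. As sites per cell the median in fibroblast-like cells was -0.40, a larger decrease than the epithelial value on that scale. Sites per cell move with cell depth, and the shallow epithelial cluster held 428 Control and 180 MOF cKO cells. In Control these were 428 of 1751 epithelial-like cells, with 3017216 of 116217454 sites. In MOF cKO they were 180 of 2727 cells, with 3370609 of 208177858 sites. Values per cell without that cluster were not computed, and the order of the 2 classes on this scale depends on whether it is counted. Against the median of all promoters, the interval lay below at 224 bidirectional promoters (31.5%), above at 113 (15.9%) and held it at 375. Of all promoter regions 29.2% lay below and 30.7% above, and of single-gene promoters matched on GC and level 39.5% and 20.2%.

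The median change of bidirectional promoters was close to that of single-gene promoters, and the sign of the small difference depended on what was matched. At matched GC, single-gene promoters had a median of -0.41, which placed bidirectional promoters 0.03 lower on the log2 scale. When single-gene promoters were matched on GC and on their Control level together, their median was -0.45, and the difference became 0.011 in the other direction. It was 0.0034 with the mean level of both libraries and 0.0064 with the fibroblast Control level in place of the epithelial one, which were chosen after seeing the data. Level itself went with the change. The 178 bidirectional promoters of lowest Control level had a median of -0.40 and the 178 of highest level -0.46, and single-gene promoters in the same level ranges had -0.33 and -0.49.

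Bidirectional promoters differed more in spread than in median. The distance between the quartiles of the log2 change was 0.14. It was 0.31 for single-gene promoters at matched GC and 0.20 at matched GC and level. That level match was coarse at the low end. The 5th percentile of Control log2 CPM was 2.08 in the matched set and 3.50 at bidirectional promoters. Single-gene promoters with a divergent long noncoding RNA had a quartile distance of 0.23 at matched GC. Their median change was -0.44, and 1.59% of them decreased 2-fold or more. A decrease of 2-fold or more was found at 4 of 712 regions (0.562%), against 3.07% of all promoter regions with at least 20 sites, 2.17% of GC-matched single-gene promoters and 1.31% of those matched on GC and level. An increase of 2-fold or more was found at 0 of 712 regions, against 2.51% of all promoter regions and 0.637% of single-gene promoters matched on GC and level. These counts depended on the scaling: scaled to the sites in all peaks of each library, shared or not, 11 regions were past 2-fold downward and 0 upward, with median-of-ratios factors 2 and 2, as sites per cell 1 and 2, and relative to the median of all promoters 0 and 3. Without the shallow cluster it was 4 and 1.

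**Figure D3:**
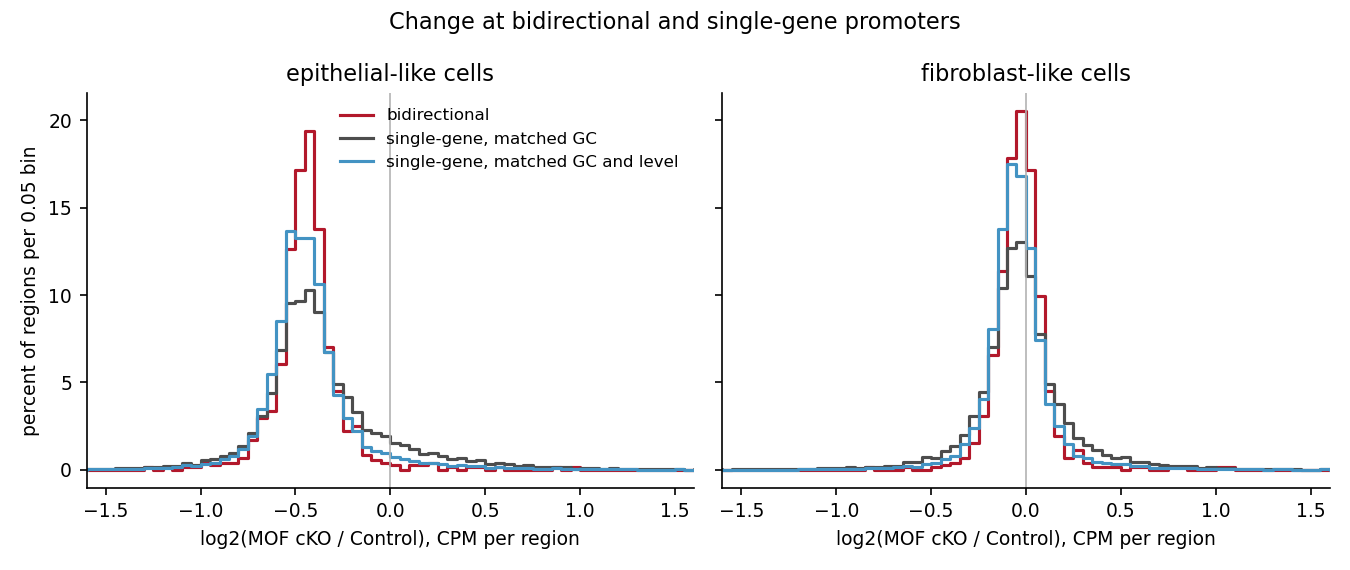
Distribution of the change per region in epithelial-like (left) and fibroblast-like (right) cells. The horizontal axis is log2(MOF cKO / Control) of CPM and the vertical axis the percent of regions in each bin of 0.05; lines are the 712 bidirectional promoters and single-gene promoters weighted to their GC, or to GC and Control level. The bidirectional promoters are centred at -0.44 (left) and at -0.03 (right), with the narrowest peak in both.

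In fibroblast-like cells the median change was -0.03 (interval -0.04 to -0.02), with quartiles of -0.10 and 0.03. Single-gene promoters of matched GC had -0.04 and all promoter regions -0.03. The counting interval was below 0 at 117 regions (16.4%) and above 0 at 40 (5.62%), against 17.7% and 10.1% of all promoter regions and 24.2% and 6.46% of single-gene promoters matched on GC and level. A decrease of 2-fold or more was found at 0 of 712 regions, against 1.25% of all promoter regions and 0.363% of single-gene promoters matched on GC and level. An increase was found at 3 (0.421%), against 2.04% and 0.508%. The 3 regions, of which 2 were chosen after their values were seen, were Taf6/Cnpy4, Ifit1bl2/Ifit1 and Trpc5/Rtl4. Ifit1bl2/Ifit1, a pair of interferon-induced genes, went from 1.15 to 7.69 CPM in fibroblast-like cells and from 1.32 to 1.08 CPM in epithelial-like cells. Trpc5/Rtl4, on X, went from 0.846 to 1.71 CPM and from 0.800 to 1.09 CPM. At 29 regions the interval was below 0 in epithelial-like and above 0 in fibroblast-like cells, and at 0 regions the other way round. These are 4.07% and 0% of the members, against 5.15% and 0.674% of all promoter regions. Among the 29 were Cenpj/Parp4 and Mitd1/Mrpl30, chosen after their values were seen. Cenpj/Parp4 went from 10.1 to 7.75 CPM in epithelial-like and from 11.4 to 17.3 CPM in fibroblast-like cells. With cells thinned to 5000 sites, the median bidirectional promoter had a site in 15.3% of Control and 11.7% of MOF cKO epithelial-like cells, and in 17.0% of fibroblast-like cells of either library.

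The change varied little with the distance between the start sites. In epithelial-like cells the median was -0.43 for TSSs at most 50 bp apart (124 regions), -0.43 for 51 to 100 bp (176 regions) and -0.45 for 101 to 200 bp (199 regions). It was -0.46 for 201 to 300 bp (89 regions), -0.47 for 301 to 500 bp (64 regions) and -0.46 for 501 to 1000 bp (60 regions). The Control level was more variable, with medians from 27.5 CPM for the closest pairs to 50.6 CPM for pairs 301 to 500 bp apart, and 31.1 CPM beyond. Just inside the limit of the definition, the 13 regions with the most distant TSSs had a median change of -0.49 and a Control level of 33.0 CPM. Just outside it, 4 regions with TSSs slightly over 1000 bp apart had -0.36 and 30.7 CPM. Across 10 bins of GC content the median change of bidirectional promoters ran from -0.48 to -0.43.

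**Figure D4:**
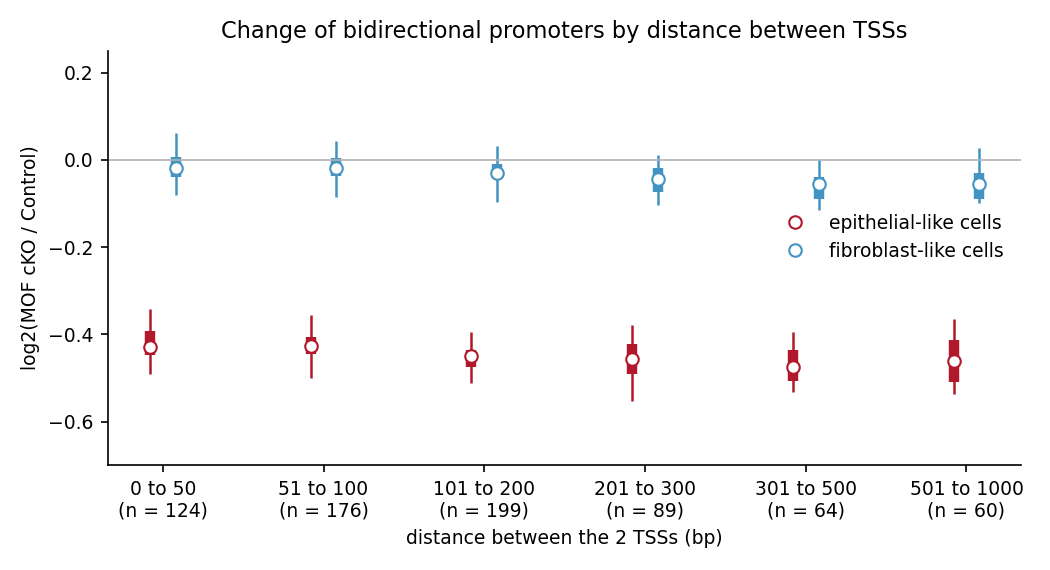
Change of bidirectional promoters by distance between the TSSs. The vertical axis is log2(MOF cKO / Control); circles are medians over regions, thick bars 95% order-statistic intervals of the median and thin bars quartiles, for epithelial-like (red) and fibroblast-like (blue) cells. All epithelial medians lie between -0.47 and -0.43 and all fibroblast medians between -0.06 and -0.02.

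The change differed little between regions with and without a motif. The median change in epithelial-like cells was between -0.48 and -0.42 for members with each of the 10 motifs. The lowest was for the RFX motif, at -0.48 (interval -0.49 to -0.44, 80 regions) against -0.44 without it, and the highest for AP-1, at -0.42 (-0.45 to -0.37, 57 regions) against -0.45 without it. Members with the ETS core had -0.43 and those without it -0.45. At single-gene promoters the split by AP-1 was wider, with -0.19 for regions with the site and -0.42 for those without.

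The change differed between MOF cKO epithelial clusters. Set against all Control epithelial-like cells, the medians of the bidirectional promoters were -0.51, -0.41 and -0.45 in the clusters of 940, 826 and 677 MOF cKO cells. A cluster of 82 MOF cKO cells with 7 Control cells had 0.10. Its median cell had 30358 sites, against 79239 to 101151 in the 3 large MOF cKO clusters. Its leading genes include Krt14, Krt15 and Krt16, of which Krt14 and Krt16 were also among those of the large clusters. The median change was -0.02 for the 180 MOF cKO cells of the shallow cluster. Within that cluster, bidirectional promoters held 3.07% of sites in Control and 2.79% in MOF cKO cells, so the share was lower in MOF cKO there too. For scale, each of the 3 Control epithelial clusters set against the other Control epithelial-like cells gave -0.02, 0.12 and -0.00054, the second being the shallow one. The difference from single-gene promoters at matched GC ran from -0.05 to -0.01 in the 3 large MOF cKO clusters, was 0.14 in the cluster of 82 MOF cKO cells and -0.02 in the MOF cKO cells of the shallow cluster, and was 0.06 and -0.06 in the 2 large Control clusters. In fibroblast-like cells the medians of the bidirectional promoters were -0.04, -0.03 and -0.02 in the 656, 79 and 437 MOF cKO cells of the 3 larger clusters. For scale, the 62 and 528 Control cells of the first and second of these clusters gave 0.11 and -0.09. Each was set against the other Control fibroblast-like cells.

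By function, the bidirectional promoters of every list were lower in MOF cKO epithelial-like cells by amounts around the median of all 712, with histone pairs lowest. The medians were -0.49 for ETC and ATP synthase genes (18 regions, -0.70 to -0.14), -0.45 for mitochondrial ribosomal proteins (18 regions, -0.71 to -0.18), -0.45 for cilium genes (17 regions, -0.67 to -0.29) and -0.44 for DNA repair genes (39 regions, -1.08 to -0.18). They were -0.50 for cytosolic ribosomal proteins (8 regions) and -0.49 for aminoacyl-tRNA synthetases (5 regions). All regions of these lists were below 0 in epithelial-like cells, as were 97.9% of all bidirectional and 84.7% of all promoter regions, and the interval of 1 of them, Ndufa1/Rnf113a1, held 0. Single-gene promoters of the same lists had medians of -0.48 for ETC and ATP synthase, -0.46 for mitochondrial ribosomal proteins, -0.49 for cilium, -0.49 for DNA repair, -0.52 for cytosolic ribosomal proteins and -0.43 for aminoacyl-tRNA synthetases. In fibroblast-like cells the list medians at bidirectional promoters ran from -0.08 for cytosolic ribosomal proteins to 0.04 for ETC and ATP synthase, apart from histones.

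The 11 histone regions had a median of -0.71, and each was at -0.48 or lower. Hist2h2ac/Hist2h2be had 26.9 CPM in Control and 13.9 CPM in MOF cKO epithelial-like cells (log2 change -0.95). Hist1h2ae/Hist1h2bg had 36.5 and 20.4 CPM (-0.84), and Hist1h2bf/Hist1h2ad had 32.0 and 22.9 CPM (-0.48), the smallest change of the list. In fibroblast-like cells the histone regions had a median of -0.15, with 10 of 11 values and the intervals of 4 below 0. Of all promoter regions 57.9% of values and 17.7% of intervals lay below 0 there, and of all bidirectional promoters 62.8% and 16.4%. Hist2h2ac/Hist2h2be had 22.8 CPM in Control and 17.03 CPM in MOF cKO fibroblast-like cells. Single-gene histone promoters had medians of -0.66 among epithelial-like and -0.20 among fibroblast-like cells. Histone genes are near-identical copies, so reads that could not be placed in 1 copy may be missing here, and values of single copies are uncertain.

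The named mitochondrial pairs were all lower in MOF cKO epithelial-like cells, as were 97.9% of all bidirectional and 84.7% of all promoter regions. Against the median of -0.41 over all promoter regions, the decrease was smaller at Sdha/Ccdc127 and larger at Uqcrq/Gdf9 and Mrps12/Sars2. The interval of Hadha/Hadhb held that median. Uqcrq, a subunit of complex III, shares its promoter with Gdf9, an oocyte growth factor (chr11:53430585-53431493). In epithelial-like cells this region had 85.2 CPM in Control and 59.7 CPM in MOF cKO, which is -0.51 on the log2 scale (interval -0.57 to -0.46), and 54.7 and 53.2 CPM in fibroblast-like cells. Sdha, the flavoprotein subunit of complex II, is paired with Ccdc127 (chr13:74349796-74350737). It had 27.1 and 22.2 CPM in epithelial-like cells (-0.29, -0.38 to -0.20) and 30.9 and 31.8 CPM in fibroblast-like cells. Hadha/Hadhb encodes both subunits of the mitochondrial trifunctional protein of fatty acid oxidation (chr5:30154695-30155613), and had 19.7 and 15.4 CPM (-0.35, -0.46 to -0.24). Mrps12/Sars2, a mitoribosomal protein and the mitochondrial seryl-tRNA synthetase (chr7:28741585-28742438), had 58.0 and 41.0 CPM (-0.50, -0.57 to -0.43). In fibroblast-like cells Hadha/Hadhb had 27.8 and 26.6 CPM, and Mrps12/Sars2 had 64.6 and 61.7 CPM.

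The ciliary example was joined to a DNA repair gene. Ift122, a component of the intraflagellar transport complex A, shares its promoter with the DNA glycosylase gene Mbd4 (chr6:115852983-115853911). The region had 73.7 CPM in Control and 52.3 CPM in MOF cKO epithelial-like cells (-0.50, -0.55 to -0.44), and 70.8 and 67.4 CPM in fibroblast-like cells. Its spacer holds CCAAT boxes and a GC box. Pdcd10/Serpini1, another textbook pair, had 109 and 80.8 CPM in epithelial-like cells (-0.43, -0.48 to -0.39) and 99.9 and 97.8 CPM in fibroblast-like cells.

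Among the textbook pairs of genome maintenance, the change ran from -0.59 to -0.35 in epithelial-like cells. Brca1/Nbr1, a recombination gene and an autophagy receptor, had 2 regions. The one that spans both start sites (chr11:101551701-101552263) had 36.2 and 24.0 CPM (-0.59, -0.67 to -0.51), and the one downstream of the Nbr1 TSS (chr11:101552367-101553055) had 50.5 and 39.3 CPM (-0.36, -0.43 to -0.29), so that the intervals of the 2 regions did not overlap. Atm/Npat, a damage-signalling kinase and a coactivator of histone genes (chr9:53536418-53537343), had 67.6 and 53.1 CPM (-0.35, -0.41 to -0.29). Mcm4/Prkdc, a subunit of the replicative helicase and the catalytic subunit of DNA-dependent protein kinase (chr16:15637104-15637984), had 72.0 and 54.5 CPM (-0.40, -0.46 to -0.34). Wrap53/Trp53, a telomerase cofactor and p53, had 25.1 and 17.5 CPM (-0.52, -0.62 to -0.42). Xpc/Lsm3 (38.8 and 27.5 CPM) and Rad51c/Tex14 (32.6 and 22.5 CPM) were close to these, with changes of -0.50 and -0.54. In fibroblast-like cells none of these regions moved by more than 0.14, the value for the first Brca1/Nbr1 region, which was lower in MOF cKO (42.1 and 38.2 CPM).

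The 4 regions past 2-fold in epithelial-like cells at this scaling were lower in MOF cKO. In each the interval of the epithelial change lay below that of the fibroblast change. That order was largely set by the selection, because the regions were picked by their epithelial change. The median over all 712 regions was also lower for the epithelial change (-0.44) than for the fibroblast change (-0.03). Poll/Gm17018, with the gene of DNA polymerase lambda (chr19:45560084-45561134), had 16.6 CPM in Control and 6.88 CPM in MOF cKO (-1.27, -1.42 to -1.13), against 26.6 and 24.2 CPM in fibroblast-like cells. Rad54l/Pomgnt1, a recombination translocase and a glycosyltransferase (chr4:116123303-116124206), had 23.1 and 11.0 CPM (-1.08, -1.19 to -0.96), against 28.1 and 23.3 CPM. Sgce/Peg10, 2 imprinted genes expressed from the paternal allele (chr6:4746725-4747590), had 10.2 and 5.07 CPM (-1.01, -1.18 to -0.84), against 14.9 and 12.8 CPM. In fibroblast-like cells the intervals of Poll/Gm17018 and Sgce/Peg10 held 0 and that of Rad54l/Pomgnt1 did not (-0.43 to -0.11). Cryzl1/Itsn1 (chr16:91728520-91729673) had 98.3 and 43.8 CPM in epithelial-like cells (-1.17, -1.22 to -1.11) and 98.7 and 56.6 CPM in fibroblast-like cells (-0.80, -0.90 to -0.71).

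Of the 5 autosomal regions furthest above Control among those with at least 500 epithelial sites over both libraries, some had a low Control level. Some were also higher in MOF cKO fibroblast-like cells. Fhod1/Slc9a5, at 16.1 CPM in Control epithelial-like cells, was not higher in MOF cKO fibroblast-like cells. The region of Lrrc74b/P2rx6 did not reach the Lrrc74b TSS, and that of Fhod1/Slc9a5 did not reach the Slc9a5 TSS. That of Pcdh12/Rnf14 reached neither TSS. Lrrc74b/P2rx6, with an ATP-gated channel gene, had 3.63 CPM in Control and 7.18 CPM in MOF cKO epithelial-like cells (0.98, 0.76 to 1.21), and 9.83 and 12.0 CPM in fibroblast-like cells (0.29, 0.03 to 0.54). Pcdh12/Rnf14, a protocadherin and a ubiquitin ligase, had 2.28 and 4.18 CPM (0.88, 0.60 to 1.18), and 1.37 and 1.51 CPM. Fhod1/Slc9a5, with a formin gene, had 16.1 and 24.2 CPM (0.59, 0.48 to 0.70), and 43.9 and 41.6 CPM. Exd1/Chp1 had 32.2 and 44.7 CPM (0.47, 0.40 to 0.55), and 34.0 and 58.2 CPM in fibroblast-like cells (0.77, 0.64 to 0.90). Taf6/Cnpy4, with a subunit of the general transcription factor TFIID (chr5:138187079-138188133), had 15.9 and 20.1 CPM (0.34, 0.23 to 0.45), and 13.5 and 28.9 CPM in fibroblast-like cells (1.09, 0.90 to 1.29). Lrrc74b/P2rx6, Exd1/Chp1 and Taf6/Cnpy4 were higher in MOF cKO in both cell classes, and Cryzl1/Itsn1 and Rad54l/Pomgnt1 were lower in both, with intervals that did not hold 0. Whether such shared changes go with genotype or with the embryos and libraries cannot be told apart. The 3 regions of highest Control level had changes of -0.53 for Hjurp/Trpm8 (-0.57 to -0.50), -0.51 for Cep57/Fam76b (-0.56 to -0.46) and -0.42 for Mob3a/Izumo4 (-0.46 to -0.37), of which the last interval held the members' median of -0.44.

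**Figure D5:**
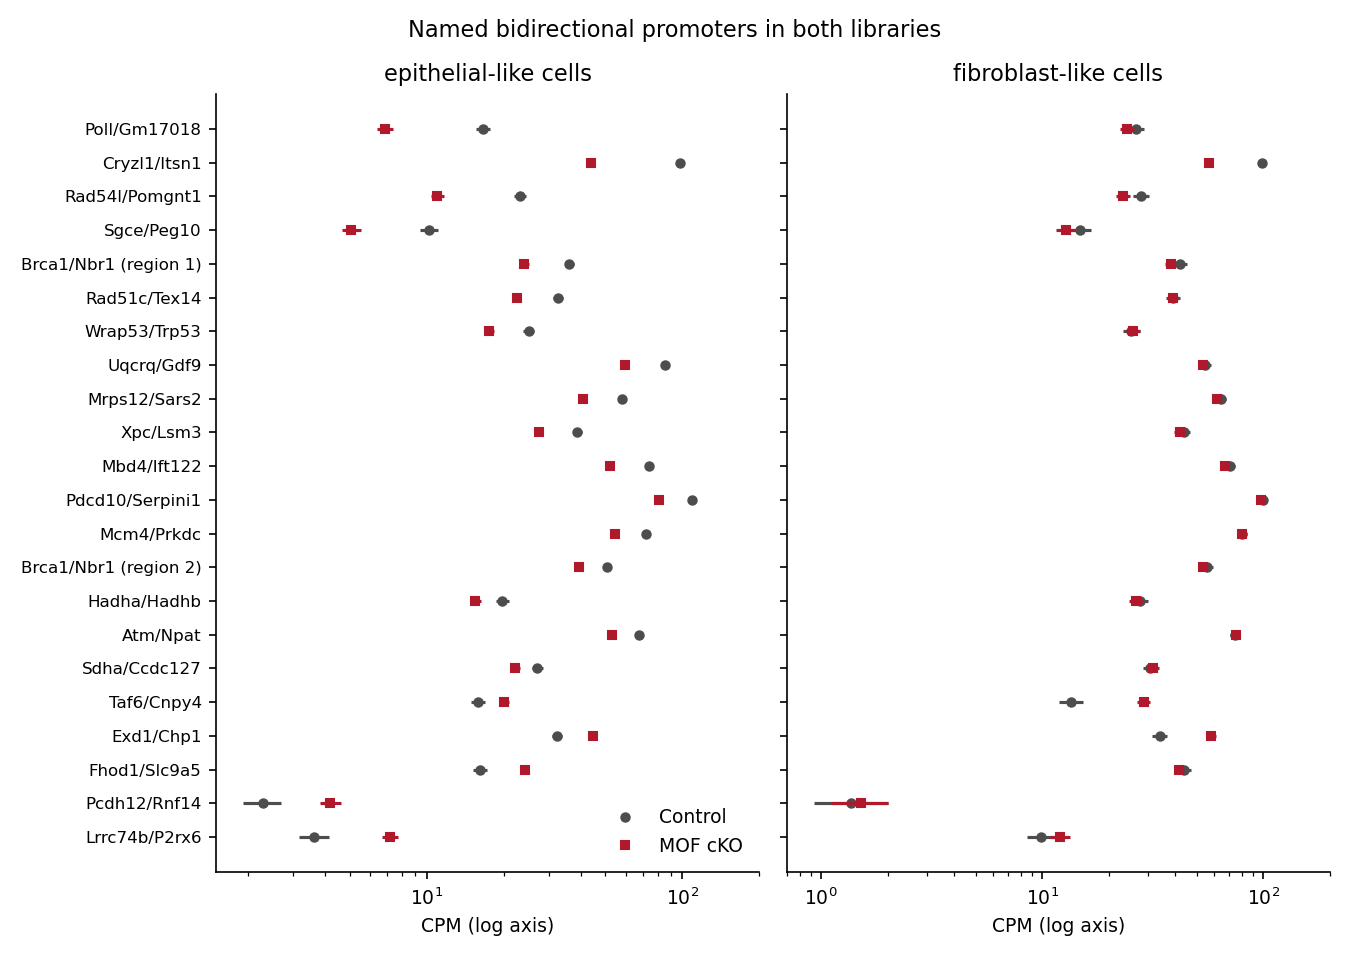
Accessibility of named bidirectional promoters in epithelial-like (left) and fibroblast-like (right) cells. The horizontal axis is CPM on a log axis; circles are the Control and squares the MOF cKO library, with exact Poisson 95% intervals, and rows are ordered by the epithelial change. In epithelial-like cells the MOF cKO value is below Control except in the 5 lowest rows, and in fibroblast-like cells the widest gaps are at Cryzl1/Itsn1, Exd1/Chp1 and Taf6/Cnpy4.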

How the data were processed

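Single-cell ATAC-seq was done on back skin at E16.5, with 1 library per genotype. The authors aligned reads with cellranger-atac 2.0.0 to mm10 and called cells and peaks in each library. The deposited matrices hold raw counts of cut sites per peak and barcode, with no normalization. Peak lists were given as positions. Most counts were even (88.8% of those in Control, 91.6% of those in MOF cKO), so intervals were computed on fragments, as sites divided by 2.

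Peaks that overlapped by at least 1 bp were merged, and regions with a peak from each library were kept. TSSs were the ends of gene records in GENCODE vM21. Barcodes with at least 1000 sites were clustered (28 singular vectors, 20 neighbours, Leiden resolution 1) and named "like" a class where at least 3 of its listed markers were 2-fold higher. A cluster with melanocyte markers led by other genes was left unnamed after seeing it. Doublets were scored and kept, with an alternative. Sites were summed per class and library, and scaled to shared-region sites of the class. Regions with at least 20 sites over both libraries were used, and a side without sites was set to 1 site. Single-gene promoters were weighted to the members' distribution over 10 GC bins, or over 5 bins each of GC and level. The outer bins have no outer limit, so the match is coarse there. Intervals were exact Poisson for counts, exact binomial for shares, conditional binomial for ratios and order-statistic binomial for medians over regions. Neighbouring regions, 2 regions of a pair and 2 list genes of 1 region are not independent.

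The members and lists were chosen with earlier results of these data known. Named were 12 of 25 textbook pairs that met the definition (the other 13 did not), genes the study used as examples, the 5 autosomal regions with at least 500 epithelial sites that moved most each way, and 3 each of highest level and of strongest class bias. Of these, 2 regions are not reported here. The 7 sequences were picked among the rest. Calculations were tested on simulated data. Tools were pysam 0.24.0, leidenalg 0.10.2, igraph 0.11.9, scikit-learn 1.9.0, scipy 1.17.1, pandas 2.3.3 and numpy 2.4.6 under Python 3.11.15.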

Additional observations from a re-analysis of the deposited data

Results flagged for a closer look

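The 5 divergent pairs with a peak in 1 library only are outside the comparisons, because the other library has no value there, and their sites were read from the list that held the peak. Sqstm1/Mgat4b, which includes the gene of the autophagy receptor p62, had a peak in Control alone, with 34.8 CPM in epithelial-like cells (33.3 to 36.3) and 42.5 CPM in fibroblast-like cells, near the medians of the bidirectional promoters in Control. Its level in MOF cKO was not analysed here. The 4 pairs with a peak in MOF cKO alone were weak. In epithelial-like cells Nr2e1/Ostm1 had 3.27 CPM, Gm12355/Gsdma3 1.08 CPM, Ccnt1/4930415O20Rik 0.961 CPM and Il11/Tmem190 0.375 CPM.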

How the results depend on the processing

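With 1 library per genotype no difference between genotypes was tested. No paired analysis was possible because each group has 1 library. Of 93 alternative values 71 moved by no more than the half-width of the interval of the reported value (over regions for medians, level differences and shares of regions, of counting for shares of sites) or, for counts, stayed within 1.5 times. One of them, the fibroblast difference from single-gene promoters with no matching, changed sign, from 0.0036 to -0.00029. The epithelial median of -0.44 was -0.59 scaled to all own peaks, -0.29 with median-of-ratios factors, -0.24 as sites per cell and -0.45 without the 10% of highest doublet scores. The epithelial difference from GC-matched single-gene promoters, -0.030, was -0.040 in cells thinned to 5000 sites. It was reversed with matching on GC and level, at 0.011, 0.0034 for the mean of both libraries and 0.0064 for the fibroblast level, the last 2 chosen after seeing the data. The fibroblast median of -0.033 was -0.084 scaled to own peaks, -0.40 as sites per cell and -0.016 thinned, and the fibroblast difference of 0.0036 was 0.019 with GC and Control level and 0.015 with GC and mean level, added later. The 4 regions past 2-fold, 4 down and 0 up, became 11 and 0 with own peaks, 2 and 2 with median-of-ratios, 1 and 2 as sites per cell, 0 and 3 relative to the promoter median, and 4 and 1 without the shallow cluster. The Control level difference of 0.85 was 1.08 unmatched, 0.024 matched on that level, as its construction gives, and 0.073 matched on the fibroblast level. The epithelial share difference of -0.752 percentage points was -0.233 of promoter sites, -0.919 of own-peak sites, -0.729 thinned and -0.757 without the shallow cluster. The share past 2-fold between classes, less that of single-gene promoters at matched GC alone, was -13.7 points in Control and -15.2 in MOF cKO. Depth limits the named regions under 5 CPM, whose counting intervals were the widest.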
